A study of Mus musculus with 12 samples.

Results

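Potassium channel genes were taken as all gene probes of the array whose gene name starts with Kcn. The rule gave 137 of 55681 gene probes, which carry 95 of the array's 28139 distinct gene names. Of the 95 genes 61 had 1 probe and 34 had 2 or more. The tissue was the descending aorta of male C57BL/6 mice bought from Janvier, fed a standard chow and carrying no transgene or treatment that the labels name. There were 6 mice aged 6 months and 6 mice aged 20 months, and each mouse was measured on 1 Agilent array read in a single colour. The aorta was taken whole, after flushing and removal of the surrounding fat, so that fewer cells of a type and less RNA per cell cannot be told apart. Levels are log2 signals of the scanner minus the 75th percentile of the gene probes on the same array, and a change is the level at 20 months minus that at 6 months, with its standard error.

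Potassium channels set the resting voltage of a cell. In arterial smooth muscle their opening makes the membrane more negative, closes voltage-gated calcium channels and relaxes the vessel, and in endothelium it starts a hyperpolarisation that spreads to the muscle. The family holds voltage-gated (Kv) pore subunits with their auxiliary subunits, channels opened by intracellular calcium or sodium, inward rectifiers that pass current best near the resting voltage, and background channels whose subunits carry a pair of pore loops.

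Each array showed from 47.5% to 55.8% of its gene probes as well above background, by the call of the scanner software. The arrays lay on 3 slides with 4 arrays each, and every slide held both ages. All 20-month arrays lay in the same column of their slide, where no 6-month array lay, so column and age cannot be told apart. The 8 smooth muscle markers, among them Acta2 and Myh11, stood above background on all 12 arrays. The brown and white adipocyte markers did so too. At 6 and 20 months Cidea averaged 9.36 and 9.17, Fabp4 9.53 and 9.25, and Ucp1 7.92 and 7.28, beside 10.14 and 10.13 for Acta2. The dimmest of them, Lep, averaged -1.89 and -1.79. Markers of other tissues were high on some arrays. The mean of 10 heart muscle markers, set against its 12-array mean, was 3.32 in 20 months replicate 1 and 2.23 in 6 months replicate 1. That of the T and NK cell markers was 1.70 in 6 months replicate 4. The mesothelial markers, which mark the lining of body cavities, differed most between the ages among the marker lists. All 4 were lower at 20 months (median change -2.28), with Msln at -3.09 ± 0.78 (limma adjusted p = 0.184), and 0 passed. Their mean ran from -0.12 to 2.55 at 6 months and from -2.35 to 0.87 at 20 months, highest in 6 months replicates 3 and 1. The 7 brown adipocyte markers all had a negative change (median -0.39), as did 5 of the 6 white adipocyte markers (median -0.17). The 6 macrophage markers all had a positive change (median 0.24), and 0 genes of these lists passed. The part of these cells in the Kcn values was not tested. In limma with age as the only term, 53 of 16853 genes passed an adjusted p of 0.05 (Benjamini-Hochberg), 44 of them higher and 9 lower at 20 months.

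The Kcn genes split about evenly into measured and unmeasured in the aorta. Genes were tested where a probe rose well above background in no fewer than 6 of the 12 mice. This held for 46 of the 95 genes, or 48.4%, beside 59.9% of all 28112 named genes on the array. A probe stood above background on all 12 arrays for 35 of the 46 genes and on 6 to 11 for the other 11. For 15 more genes the best probe rose above background on 1 to 5 arrays, and for 34 genes no probe did on any array. None of the 137 probes was saturated. The share measured was 18 of 40 among Kv pore and modifier subunits, 6 of 12 among Kv auxiliary subunits, 6 of 12 among calcium- and sodium-activated channels and their subunits, 6 of 15 among inward rectifiers and 8 of 14 among background channels. The names also cover 2 genes that encode no channel, Kcnrg and Kcnq1ot1, and both were measured.

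**Figure D1:**
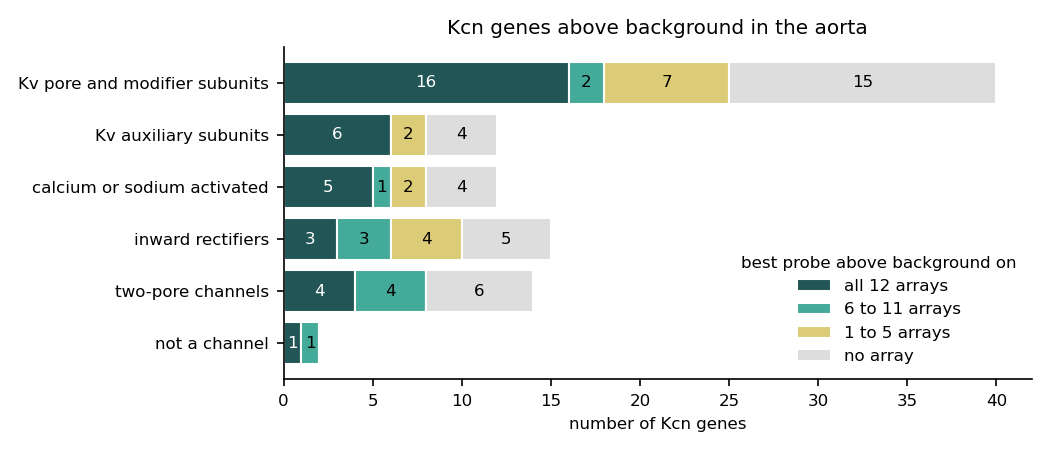
Number of Kcn genes in each class (bars, horizontal axis) by how many of the 12 arrays showed the gene's best probe well above background. Of 40 Kv pore and modifier genes 16 stood above background on all 12 arrays and 15 on none.

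Whole subfamilies lay on the dark side. None of the 4 Kcng genes, the 2 Kcnv genes or Kcnf1, which encode modifiers that join Kv2 pores, was measured, and of the 3 Kcns genes of the same kind 1 was, Kcns3. Of the 8 ether-a-go-go (Kcnh) genes 3 were measured, namely Kcnh2, Kcnh3 and Kcnh4, and the other 5 were dark on every array. Of the 4 beta subunits of the large-conductance calcium-activated channel, Kcnmb1 was above background on all 12 arrays, whereas Kcnmb2, Kcnmb3 and Kcnmb4 were above it on none. Several genes that the literature places in vessels were dark on all 12 arrays. These were Kcnj2, an inward rectifier, Kcnk2, a stretch-sensitive background channel, Kcnb2, a Kv2 pore, Kcnab2, a cytoplasmic Kv beta subunit, and Kcnn2, a small-conductance calcium-activated channel. Each of these 5 has 1 probe on the array, so a dark probe does not show that the gene is silent.

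The promoters of the unmeasured genes were richer in G+C in the median than those of the measured genes. RefSeq promoter windows (mouse assembly GRCm38.p6, 250 bases before to 50 after a start of the gene) were found for 70 of the 95 genes, 34 measured and 36 unmeasured. Each of these genes had from 1 to 4 windows. The G+C content of a gene was the median over its windows. A motif counted as present if any window held it, so genes with more windows had more places to hold it. The median G+C content was 57.2% for the measured and 62.2% for the unmeasured genes, and 52.7% over all 27025 genes of the table. The motif GGGCGG, searched on both strands, was present in 15 of 34 measured genes (44.1%), 28 of 36 unmeasured genes (77.8%) and 38.2% of all genes. The motif TATAAA, searched in the same way, was present in 3 measured and 2 unmeasured genes and in 15.7% of all genes. A CArG box is a binding site of serum response factor. It was found on either strand in 0 of the 70 genes and in 1.81% of all genes. These are descriptions of letters in a window and were not tested.

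The pore and the beta subunit of the large-conductance channel show how far measured promoters differ, and are printed for that reason. Both genes stood above background on all 12 arrays. The 250 bases before the start are given on the strand of the gene, with each CG in capitals. The Kcnma1 stretch lies at chr14:24004206-24004455 on the minus strand and holds 31 CG, with a G+C content of 79.2%. The Kcnmb1 stretch lies at chr11:33962763-33963012 on the plus strand and holds 1 CG, with a G+C content of 50.8%.
Kcnma1: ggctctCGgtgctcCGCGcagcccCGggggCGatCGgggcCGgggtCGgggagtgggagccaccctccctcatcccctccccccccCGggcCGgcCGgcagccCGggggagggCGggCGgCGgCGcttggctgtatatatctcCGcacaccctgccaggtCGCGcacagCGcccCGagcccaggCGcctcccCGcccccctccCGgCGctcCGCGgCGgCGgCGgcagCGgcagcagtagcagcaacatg
Kcnmb1: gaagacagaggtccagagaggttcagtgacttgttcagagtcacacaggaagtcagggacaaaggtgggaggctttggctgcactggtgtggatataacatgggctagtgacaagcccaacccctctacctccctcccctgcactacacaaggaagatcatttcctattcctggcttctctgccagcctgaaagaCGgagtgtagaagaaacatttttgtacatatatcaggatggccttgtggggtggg

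No potassium channel gene passed the test between the ages. The question asked is whether the aorta of old mice holds different amounts of channel transcripts than that of adult mice. Of the 46 genes tested, 0 passed an adjusted p of 0.05 in limma, where 0.314% of all genes did. At an unadjusted p under 0.05 there were 5, or 10.9%, where 7.99% of all genes lay. Of these 3 were lower at 20 months, Kcna2, Kcna1 and Kcne4, where 3.42% of all genes were both lower and under that p. The other 2 were higher, Kcnip3 and Kcnj12, where 4.57% of all genes were. The smallest adjusted p was 0.246, that of Kcna2. No gene had its 6 values at 1 age all above the 6 at the other, which held for 0.813% of all genes. The estimated changes were negative for 28 and positive for 18 genes, with a median of -0.03 beside -0.02 over all genes tested. The share below 0 was 60.9%, beside 56.1% of all genes. Without the 3 arrays high in heart muscle or T and NK cell markers, 18 of the 43 genes then tested were negative and 25 positive.

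The size of change that the data allow was narrow for most of the genes. The 95% interval of the change lay within 1.5-fold either way for 32 of 46 genes, or 69.6%, beside 81.2% of all genes, and within 2-fold for 44. Estimated changes reached 1.5-fold for 2 genes, Kcna2 and Kcnk9, and for 1.86% of all genes. The median spread between mice of 1 age was larger than over all genes. The median SD over 6 mice was 0.305 at 6 months and 0.233 at 20 months for the 46 genes, and 0.212 and 0.178 over all genes tested. More of the 46 were dim, since 35 stood above background on all 12 arrays, beside 15534 of all 16853 genes tested. The part of dim signals in the spread and the intervals was not tested. The direction was the same on all 3 slides for 17 of the 46 genes, or 37.0%, beside 37.2% of all genes.

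**Figure D2:**
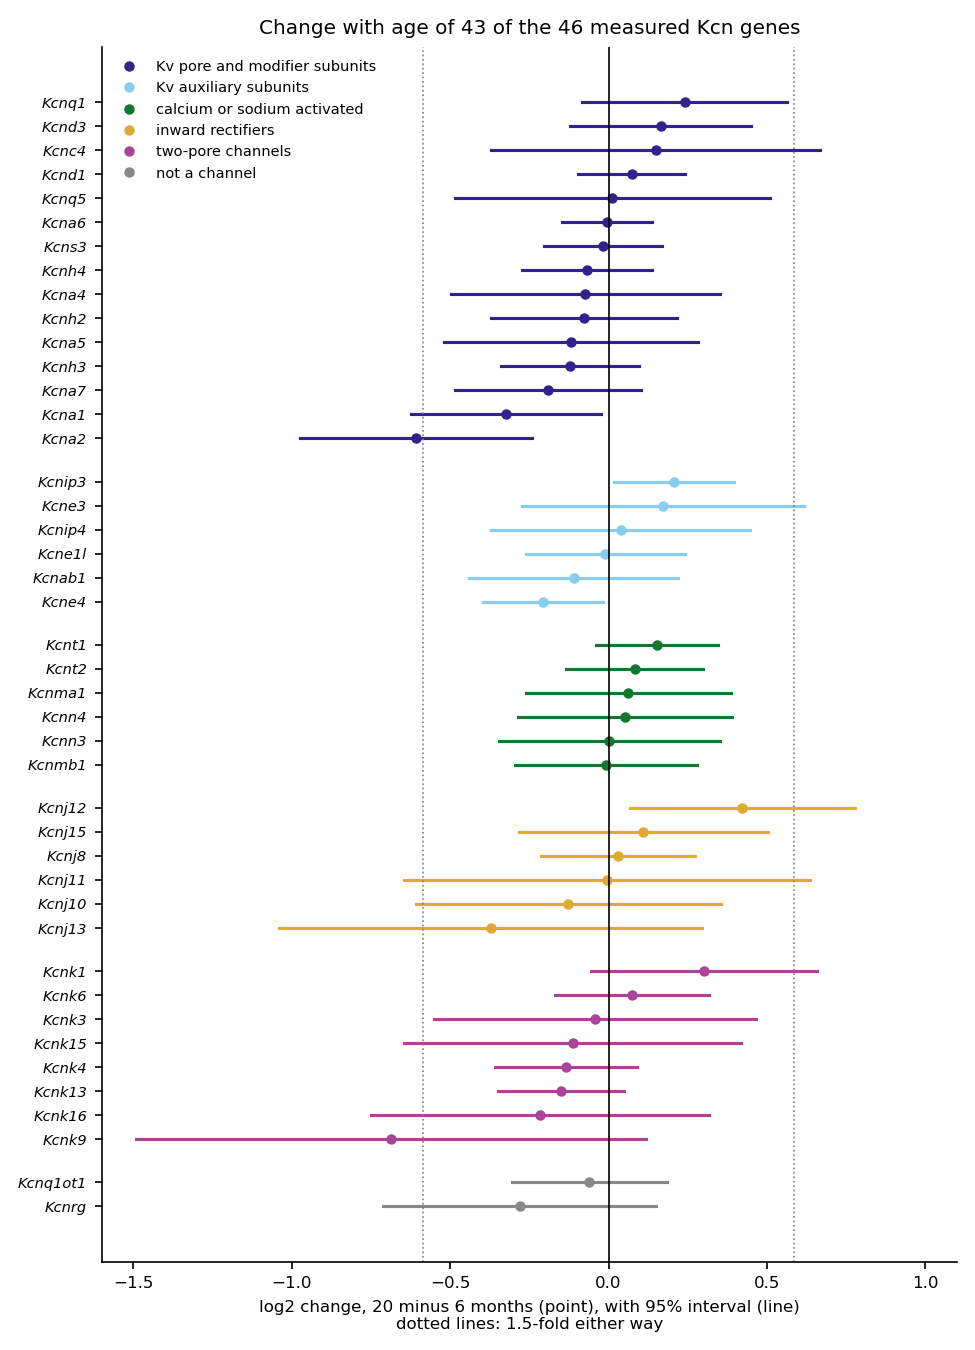
Change of 43 of the 46 measured Kcn genes (point, log2, 20 minus 6 months) with its 95% interval from limma (line), grouped by class. Intervals of 30 of the genes drawn lie between the dotted lines at 1.5-fold, and the 6 calcium- and sodium-activated genes all do.

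Among the Kv1 (Shaker-type) pore subunits, 6 of 8 Kcna genes were measured, and 0 passed the adjusted threshold. The 6 estimates were below 0 (median -0.15), where 56.1% of all genes were, and that of Kcna6, at -0.01, was above 0 in 8 of 26 alternatives over all slides. Kcna2, which forms delayed-rectifier channels in smooth muscle and in myelinated axons, lay at -2.86, -2.43 and -1.95 (lowest, median and highest of 6) at 6 months and at -3.53, -2.91 and -2.58 at 20 months. All 6 old mice lay below the median of the adult mice, and the ages overlapped, since 20 months replicates 2 and 4 lay above 6 months replicate 5. The change was -0.61 ± 0.17, or 1.52-fold lower (n = 6 and 6, limma adjusted p = 0.246, unadjusted p = 0.00332). On slides 1, 2 and 3 alone it was -0.98, -0.19 and -0.65. The signal is dim, since 5 of the 6 old mice, and all adult mice, showed the probe above background. Its unadjusted p stayed under 0.05 in all 25 alternatives over all slides that tested it, with adjusted p from 0.16 to 0.587. The change ran from -0.70 to -0.24 over these alternatives, and the value nearest 0 was that with normexp background correction.

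Kcna1, a Kv1 pore best known from nerve, lay at -0.20, 0.07 and 0.58 at 6 months and at -0.55, -0.18 and -0.02 at 20 months. All 6 old mice again lay below the adult median, and 2 adult mice lay among them. The change was -0.32 ± 0.14 (adjusted p = 0.583). Its unadjusted p was under 0.05 in 17 of 26 alternatives over all slides, and the change ran from -0.38 to -0.09. The value nearest 0 was that without 6 months replicates 3 and 6 and 20 months replicate 1, the arrays lowest in smooth muscle markers. Both genes are known from nerve, and the list of nerve and Schwann cell markers was set beside them. Of its 8 measured genes 4 had a positive and 4 a negative change and 0 passed. The range of their mean was -0.19 to 0.29 at 6 months and -0.05 to 0.02 at 20 months. The part of these cells in the Kcna values was not tested. Kcna3, a Kv1 pore of lymphocytes and of smooth muscle, was above background in 3 of 6 adult and 0 of 6 old mice, too dim to be tested. The 3 arrays were 6 months replicates 1, 4 and 5, and replicate 4, where the signal of Kcna3 was highest at -2.86, is the array high in T and NK cell markers. The mean of the 6 measured of these 9 markers ran from -0.62 to 1.70 at 6 months and from -0.45 to 0.19 at 20 months, and their part in the Kcna3 signal was not tested.

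**Figure D3:**
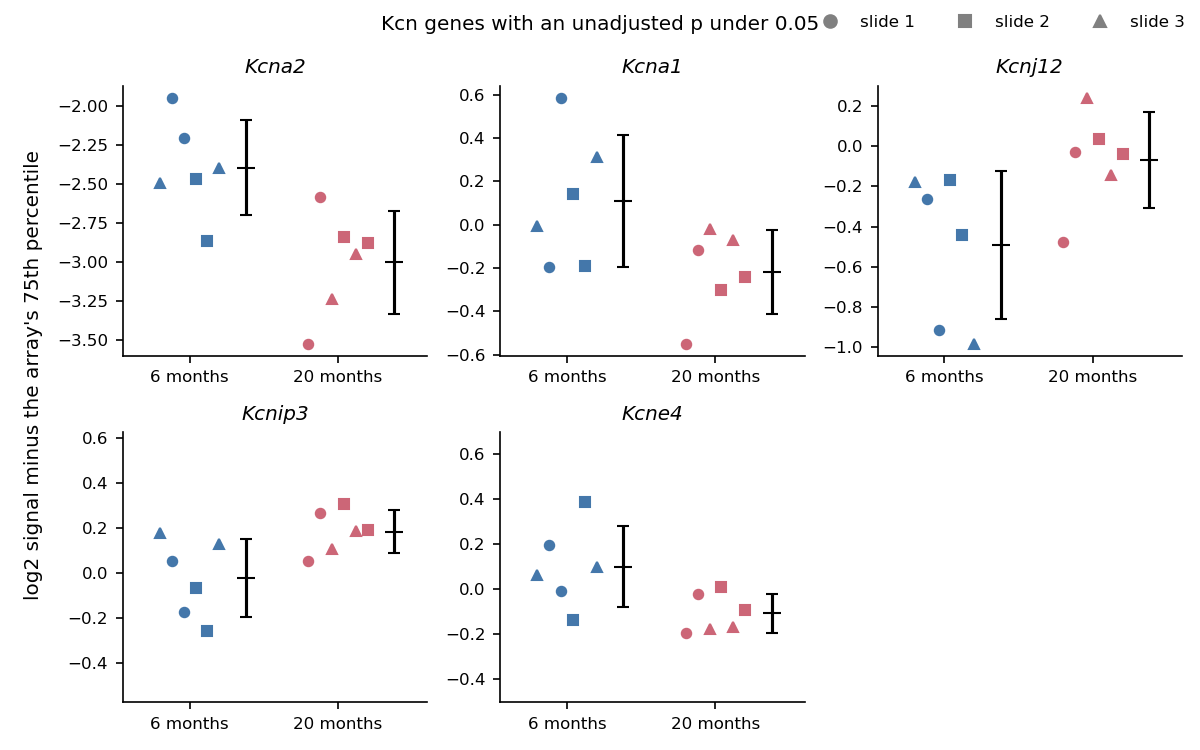
Level in each mouse of the 5 genes with an unadjusted p under 0.05 (points, log2 signal minus the array's 75th percentile) by age, with the mean and SD of 6 mice beside them and the slide as the symbol. Kcna2, Kcna1 and Kcne4 lie lower and Kcnj12 and Kcnip3 higher at 20 months, with overlap in each.

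Kcna5 and Kcna6 are read by several probes that did not run together, and 30 bases from the middle of each 60-base probe (bases 16 to 45) are printed to show which transcript stretches they read. Positions are those of the array files, in build mm9, and all lie on the minus strand. The Kcna5 probes lie at chr6:126483373-126483432 (first) and chr6:126482573-126482632 (second). The Kcna6 probes lie at chr6:126686702-126686761 (first), chr6:126658424-126658483 (second) and chr6:126686922-126686981 (dark). The probe of Kcna2, at chr3:106909700-106909759 on the plus strand, is added because its value stands out among the pores.
Kcna5 first probe: ctgtatgccctctgtctggacactagccgg
Kcna5 second probe: attcttttcattttgatagcaggaaataaa
Kcna6 first probe: ttgtgcctcagttccccccacccattaaat
Kcna6 second probe: gatcaaaggagaggaggtgttaggatgatc
Kcna6 dark probe: tgggtacagctctgaaactcaaaggactgt
Kcna2 probe: ctttggggattaatctagtcgtgggcatga

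Kcna5, a Kv1 pore of arterial and heart muscle, lay at -1.73, -1.36 and -0.79 at 6 months and at -1.96, -1.34 and -1.11 at 20 months on its first probe, with a change of -0.12 ± 0.19 (adjusted p = 0.894). The ages overlapped over nearly their whole range. The second probe gave a change of -0.14 ± 0.20 but another order of mice. At 6 months the first probe was highest in replicates 4 and 5 (-0.79 and -0.93) and lowest in replicate 6 (-1.73), while the second was lowest in replicates 5 and 4 (-2.41 and -2.03) and highest in replicate 6 (-1.28). Both probes stood above background on all 12 arrays, so the order of the mice for Kcna5 depends on the probe. The probes of Kcna6, another Kv1 pore, also differed. The first, tightly grouped, lay between 0.08 and 0.31 in all 12 mice, with a change of -0.01 ± 0.07. The second had a change of -0.27 ± 0.13 (adjusted p = 0.687 over all probes tested), and the one called dark was above background on none of the 12 arrays.

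The remaining Kcna genes were Kcna4, an inactivating Kv1 pore, with a change of -0.07 ± 0.20, and Kcna7, a Kv1 pore of muscle. Kcna7 lay at -0.26, 0.17 and 0.39 at 6 months and at -0.27, -0.13 and 0.20 at 20 months. Of the old mice 5 lay below the adult median, within the adult range but for the lowest. Its 2 probes had changes of -0.19 ± 0.14 and -0.35 ± 0.15. The second probe had a limma unadjusted p of 0.0328 (adjusted p = 0.609 over all probes tested).

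Other Kv pores had changes on both sides of 0. Kcns3, the modifier that pairs with Kv2, lay between 1.14 and 1.56 in all 12 mice and had a change of -0.02 ± 0.09. Kcnc4, a Kv3 pore, had a change of 0.15 ± 0.24. It differed widely between mice, from 0.36 to 1.79 at 6 months and from 0.49 to 1.68 at 20 months.

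The Kv4 pores give fast, inactivating currents, and both measured members had positive changes on the probe used for the gene. Kcnd3 lay at 2.02, 2.47 and 2.61 at 6 months and at 2.09, 2.62 and 2.68 at 20 months, with a change of 0.16 ± 0.13 (adjusted p = 0.772). The ranges overlapped, and 4 old mice lay above the adult median. Kcnd1 had a change of 0.07 ± 0.08. Each had a dimmer probe past the filter, with a change of 0.44 ± 0.28 for Kcnd3 and of -0.24 ± 0.20 for Kcnd1. The sign for Kcnd1 therefore depends on the probe. Among the Kv7 (Kcnq) pores, targets of drugs that relax or contract vessels, 4 of 6 were measured. Kcnq1 was positive on all 3 slides, at 0.25, 0.42 and 0.06, and its change of 0.24 ± 0.15 did not pass (adjusted p = 0.72). The dim Kcnq5 had a change of 0.01 ± 0.23, with an interval from -0.48 to 0.51. Kcnh2, the ether-a-go-go-related pore of heart muscle, lay between 0.08 and 1.0 and had a change of -0.08 ± 0.14.

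The auxiliary subunits of Kv channels set where and how the pores open, and 6 of 12 were measured. Kcne4, a single-span subunit that binds Kv7 and Kv1 pores, lay at -0.14, 0.08 and 0.38 at 6 months and at -0.19, -0.13 and 0.01 at 20 months. All 6 old mice lay below the adult median, and the ages overlapped. The change was -0.21 ± 0.09 (adjusted p = 0.578, unadjusted p = 0.0351) and was negative on each slide, at -0.20, -0.17 and -0.25. Its unadjusted p was under 0.05 in 16 of 26 alternatives over all slides, with the replicate block and array weights among those where it was not. Kcnip3, a calcium-binding protein that binds Kv4 pores and is also known as a transcriptional repressor, lay at -0.26, -0.01 and 0.18 at 6 months and at 0.05, 0.19 and 0.31 at 20 months. All 6 old mice lay above the adult median, with 3 adult mice inside the old range. The change was 0.21 ± 0.09 (adjusted p = 0.57), and on slide 3 alone it was -0.01. Its unadjusted p was under 0.05 in 17 of 26 alternatives over all slides. Kcnab1, the cytoplasmic beta subunit that goes with Kv1 pores in smooth muscle, lay at 3.40, 3.80 and 4.19 and at 3.22, 3.75 and 3.90, with a change of -0.11 ± 0.15. The other 3 measured subunits were Kcne3 (0.17 ± 0.21), Kcnip4 (0.04 ± 0.19) and Kcne1l, now named Kcne5 (-0.01 ± 0.12). Their intervals all included 0.

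The calcium-activated channels feed calcium signals of muscle and endothelium back to the membrane voltage. The intervals of all 6 measured genes of the class lay within 1.5-fold. Kcnma1, the pore of the large-conductance channel, lay at 1.39, 2.0 and 2.35 at 6 months and at 1.63, 2.05 and 2.11 at 20 months, with a change of 0.06 ± 0.15 (interval -0.26 to 0.39, adjusted p = 0.936). The old mice lay inside the adult range. Its 3 probes all had positive changes, from 0.06 to 0.21. Kcnmb1, the beta subunit that raises the channel's calcium sensitivity in smooth muscle, lay at 2.35, 2.94 and 3.16 and at 2.55, 2.82 and 2.96, with a change of -0.01 ± 0.13 (interval -0.30 to 0.28). Again the old mice lay inside the adult range.

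In the endothelium, calcium opens the small- and intermediate-conductance channels Kcnn3 and Kcnn4. Kcnn4 lay at -1.71, -1.56 and -1.15 at 6 months and at -2.08, -1.35 and -1.10 at 20 months, with a change of 0.05 ± 0.16 (interval -0.29 to 0.39). Kcnn3 lay at -2.86, -2.73 and -2.54 at 6 months and at -3.02, -2.85 and -1.91 at 20 months. The highest of these values, that of 20 months replicate 2, stood apart from the other 5 old mice, and the change was 0.00 ± 0.16. The sodium-activated channels Kcnt1 and Kcnt2 had changes of 0.15 ± 0.09 and 0.08 ± 0.10. Of the 8 endothelial markers 3 had a positive and 5 a negative change, and 0 passed the threshold.

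**Figure D4:**
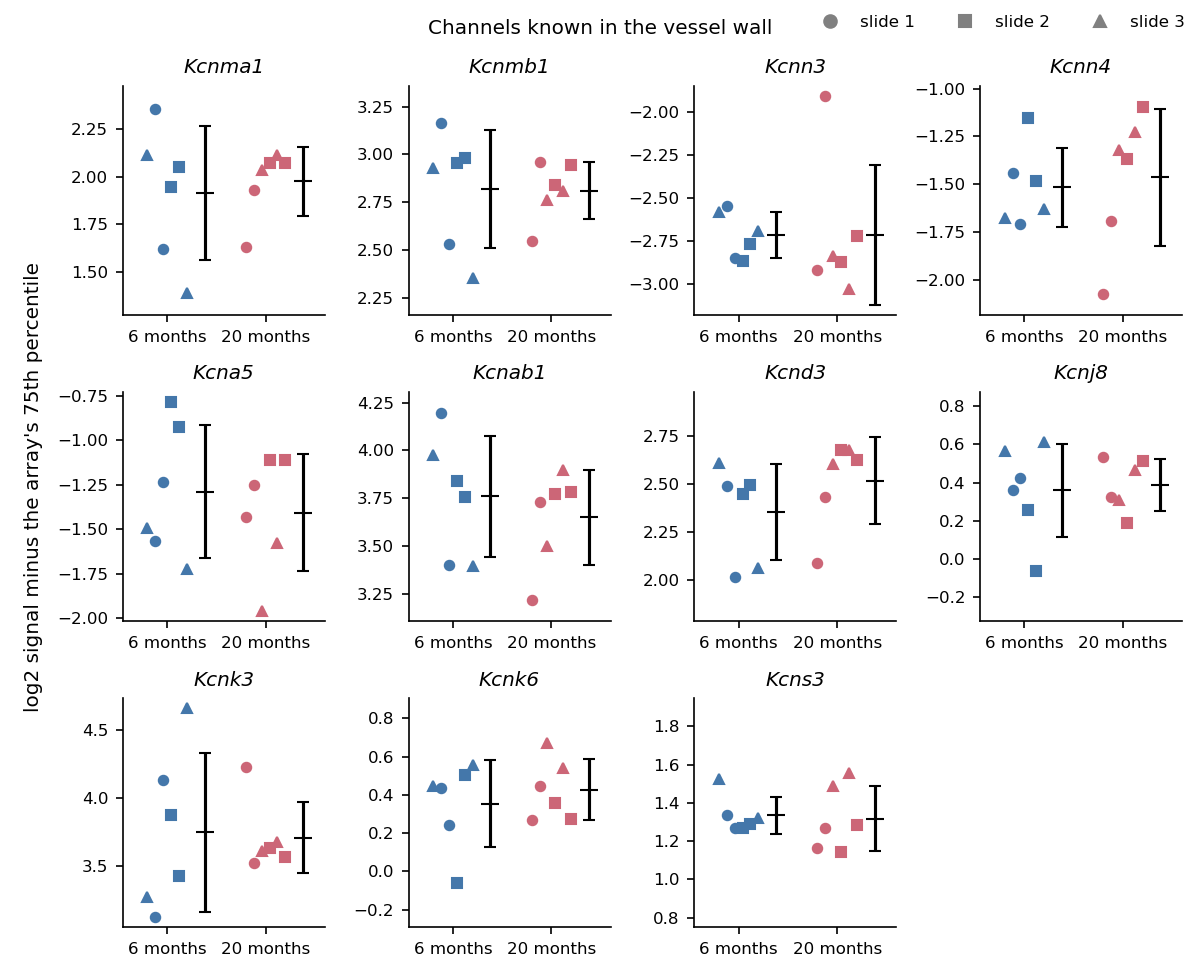
Level of 11 channel genes known in the vessel wall in each mouse (points, log2 signal minus the array's 75th percentile) by age, with the mean and SD of 6 mice beside them and the slide as the symbol. The ages overlap in every panel; in Kcnma1 and Kcnmb1 the lowest 3 of the 12 mice are 6 months replicates 3 and 6 and 20 months replicate 1.

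The inward rectifiers gave the largest positive change among the 46 genes. Kcnj12, a strong inward rectifier of muscle, lay at -0.98, -0.35 and -0.17 at 6 months and at -0.48, -0.03 and 0.24 at 20 months. Of the old mice 5 lay above every adult mouse, and 20 months replicate 1 lay lower. The change was 0.42 ± 0.16, or 1.34-fold higher (adjusted p = 0.519, unadjusted p = 0.0236), at 0.33, 0.31 and 0.63 on the 3 slides. It was positive in all 26 alternatives over all slides, with adjusted p from 0.189 to 0.931. Its unadjusted p was 0.05 or more without 6 months replicate 3, where the change was 0.34, without 6 months replicate 6 (0.32) and without 20 months replicate 3 (0.36).

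The genes of the ATP-sensitive channels had estimates near 0. Kcnj8, the pore of the vascular ATP-sensitive channel, lay at -0.06, 0.39 and 0.61 and at 0.19, 0.40 and 0.53, with a change of 0.03 ± 0.11 (interval -0.21 to 0.27). Its partner subunit Abcc9, the sulfonylurea receptor of smooth muscle, averaged 4.83 ± 0.26 (SD, n = 6) and 4.83 ± 0.21 (SD, n = 6) with a change of -0.00 ± 0.13. Kcnj11, the pore of the pancreatic and cardiac ATP-sensitive channel, rose above background in 4 of 6 mice of each age, and its interval ran from -0.65 to 0.64. Kcnj10 and Kcnj13, dim rectifiers of epithelia and glia, had changes of -0.13 ± 0.22 and -0.37 ± 0.31. Kcnj15 was even among the adult mice, from 1.16 to 1.37, and uneven among the old, from 0.87 to 2.28, with a change of 0.11 ± 0.18.

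The background channels had 2 positive and 6 negative changes. Kcnk3, an acid-sensitive channel that holds the resting voltage of arterial muscle, lay at 3.13, 3.65 and 4.66 at 6 months and at 3.52, 3.62 and 4.23 at 20 months, with a change of -0.04 ± 0.24 (adjusted p = 0.977). The highest values were those of 6 months replicate 6 and 20 months replicate 1. Kcnk6 lay between -0.06 and 0.67 and had a change of 0.07 ± 0.11. Kcnk9 had the largest estimate of all, -0.69 ± 0.37 (adjusted p = 0.68), from a dim probe that stood above background on 4 of 6 adult and 2 of 6 old arrays. Its 20-month values ran from -5.12 to -2.59, and its interval from -1.49 to 0.12. Without 20 months replicate 3 the change was -0.41, nearer 0 than that of Kcna2 (-0.56) in the same fit, and with normexp background correction it was -0.13. Kcnk1, also dim, had a change of 0.30 ± 0.17 (adjusted p = 0.681) and was positive on each slide. Kcnk13 was negative on each slide, with a change of -0.15 ± 0.09 (adjusted p = 0.718).

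The names that encode no channel did not pass either. Kcnrg, a protein that hinders the assembly of Kv channels, was dim and had a change of -0.28 ± 0.20 (adjusted p = 0.758). Kcnq1ot1, the imprinted noncoding transcript antisense to Kcnq1, had a change of -0.06 ± 0.11.

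Several vascular channels had the same 3 arrays at the bottom or the top of their values. The 3 arrays lowest in the mean of the smooth muscle markers were 6 months replicate 6 (-0.39 from the 12-array mean), 6 months replicate 3 (-0.34) and 20 months replicate 1 (-0.19). The same 3 were the highest in the brown adipocyte markers, at 0.87, 0.61 and 0.50. All 7 genes of that list, Ucp1 among them, were above background on every array, and their mean ran from -0.37 to 0.87 at 6 months and from -0.49 to 0.50 at 20 months. Exactly these 3 arrays were also the lowest of the 12 for 5 of the 46 Kcn genes, namely Kcnma1, Kcnmb1, Kcnab1, Kcnd3 and Kcnj12, and for 4.32% of all genes tested. They were the highest for 2 Kcn genes, Kcnk3 among them, and for 8.17% of all genes. Kcnma1 lay between 1.39 and 1.63 on the 3 arrays and between 1.93 and 2.35 on the other 9. Kcnk3 lay between 4.13 and 4.66 on the 3 and between 3.13 and 3.88 on the others. The part of the tissue's make-up in these values was not tested.

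With these 3 arrays left out, a choice made after seeing the data, 0 Kcn genes passed the adjusted threshold. The change of Kcnma1 turned from 0.06 to -0.07 and that of Kcnk3 from -0.04 to 0.18. That of Kcnj12 went from 0.42 to 0.28, and the change of Kcnmb1 went from -0.01 to -0.14. That of Kcna1 went from -0.32 to -0.09. The adjusted p of these 5 genes lay between 0.292 and 0.768. The 3 arrays lay on slides 1 and 3, and 2 of them are from adult mice.

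**Figure D5:**
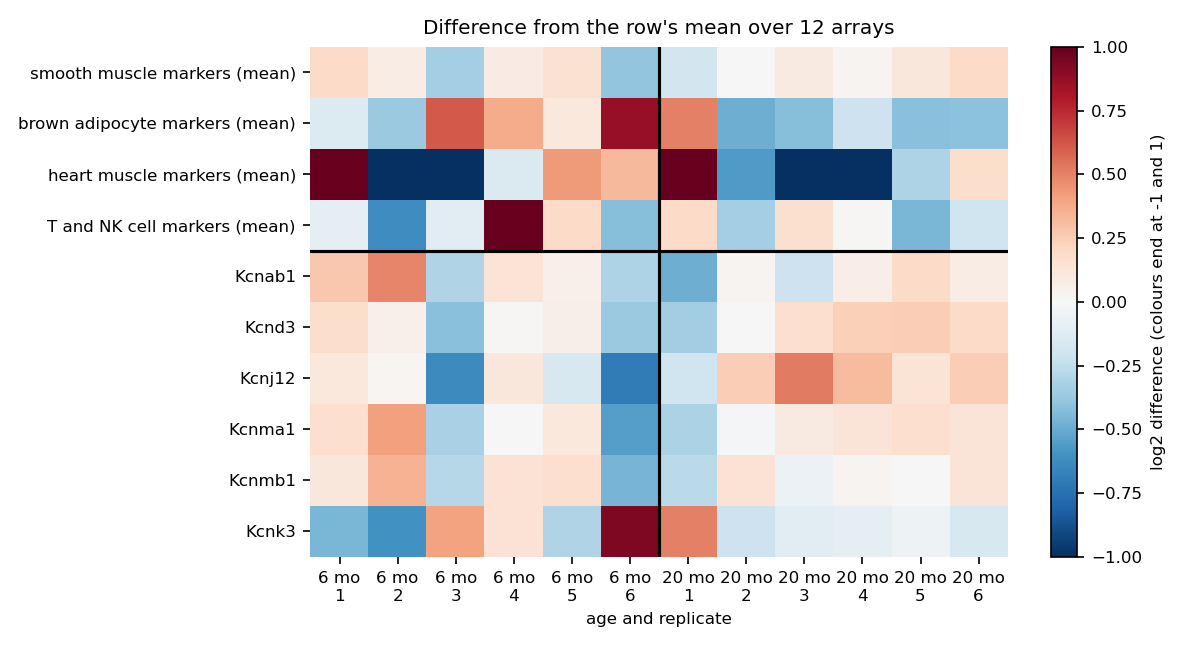
Difference of each array from the row's mean over the 12 arrays (colour, log2) for the means of 4 marker lists and for 6 Kcn genes, with arrays ordered by age and replicate. In 6 months replicates 3 and 6 and 20 months replicate 1 the smooth muscle markers and 5 channel genes are lowest, and the brown adipocyte markers and Kcnk3 highest.

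Genes that only a few arrays showed were spread over all arrays, with the most on a pair of them. The 15 genes with a best probe above background on 1 to 5 arrays gave 26 pairs of gene and array. Of these 12 fell on 6 months replicate 4 and 20 months replicate 5, on which more probes rose above background (55.8% and 55.5%) than on the other 10 (at most 50.2%). For 8 of the 15 genes, all such arrays were these 2. Among them were Kcnip2, a Kv4-binding subunit of heart muscle, Kcnj9 and Kcnj14, inward rectifiers, Kcng1, a Kv2 modifier, Kcnn1, a small-conductance calcium-activated channel, Kcnq3, a Kv7 pore of neurons, and Kcnu1, a channel of sperm. Kcnj3, a rectifier gated by G proteins in heart atria and brain, was above background on 2 old arrays, replicates 2 and 5.

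Kcnj5 rose above background on the 2 arrays highest in heart muscle markers. This gene encodes the other subunit of the atrial channel that acetylcholine opens. It lay at -2.27 in 6 months replicate 1 and at -1.86 in 20 months replicate 1, and on the other 10 it lay between -5.95 and -3.52. The mean of the heart muscle markers was 2.23 and 3.32 on these 2 arrays and ran from -1.59 to 0.42 on the others. The part of heart tissue in the signal was not tested. Kcne1, the subunit of the slow cardiac Kv7 channel, was dark on all 12 arrays. Without these 2 arrays and 6 months replicate 4, 0 Kcn genes passed, and the median change over the genes tested moved from -0.03 to 0.04.

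Probes of 1 gene did not always run together. For 10 genes at least 2 probes passed the filter on low signals, and for 7 of them these probes had changes of 1 sign. The exceptions were Kcnd1, Kcnip4 and Kcnq1ot1. For 8 genes 1 probe stood above background on all 12 arrays while another did on none, as for Kcna6. With every probe tested on its own, 0 of 57 Kcn probes passed, where 0.257% of all probes did, and 6 (10.5%) lay under an unadjusted p of 0.05, beside 7.56% of all probes.

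None of the measured partners of the channels passed either. The list held 34 genes, among them subunits, anchoring proteins and calcium release channels, and was put together with earlier results of these data known. Of its genes 27 were measured and 0 passed the adjusted threshold, with 10 positive and 17 negative changes, a median of -0.02 and 4 at an unadjusted p under 0.05, where 7.99% of all genes lay under that p and 56.1% were negative. Stx1a, a membrane fusion protein that binds Kv2 and ATP-sensitive channels, had the smallest p, with a change of 0.56 ± 0.16 (adjusted p = 0.271). It averaged -0.45 ± 0.33 (SD, n = 6) at 6 months and 0.11 ± 0.27 (SD, n = 6) at 20 months. Jph2, which holds calcium stores near the membrane and so couples them to the large-conductance channel, had a change of 0.41 ± 0.17 (adjusted p = 0.541). Dpp10, a Kv4 subunit, and Akap7, a kinase anchor, had changes of 0.44 ± 0.19 (adjusted p = 0.596) and -0.28 ± 0.11 (adjusted p = 0.54). Of the measured calcium release channels, Itpr1 and Itpr2 had the changes nearest 0, at 0.05 and -0.02, and the others had larger, positive changes. The leucine-rich partners of the large-conductance channel Lrrc26, Lrrc52 and Lrrc55 were dark on every array.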

How the data were processed

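Per the file headers, Agilent software (Feature Extraction 10.7.1.1) was used by the authors to read each array, and the deposited scanner files hold an intensity per spot with background subtracted and no scaling between arrays. A deposited table of log2 values of the same arrays, with scaling steps not given in the sources used here, served as an alternative; its column medians ran from -0.03 to 0.01, and its values followed the median-centred scanner values with r of 0.898 to 0.985 per array across probes. Outlier spots were left out, spots of a probe averaged, log2 taken and each array's 75th percentile subtracted. Probes above background on at least 6 of 12 arrays entered, with 1 probe per gene (highest mean). Ages were compared with limma 3.58.1 (R 4.3.3) over 16853 genes with Benjamini-Hochberg adjustment, each p resting on 6 and 6 mice, whose number limits the precision. The procedure was also run on simulated data with independent noise for each gene and no slide or tissue differences. That run therefore does not cover such differences between these arrays.

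Probes were named by transcript accession or symbol through a RefSeq gene table, and Kcn genes kept the array's names. Probes spelled KCNQ1ot1 (5) and 1 probe whose current symbol alone starts with Kcn were not counted. Whether a probe lies in coding or untranslated sequence was not analysed here. Named genes are the 12 with the smallest p and the listed channels of the vessel wall and of other tissues; the subfamilies' other members are examples. Values of some genes are not reported here, though counts over all genes include them except where a smaller number is given. The members, lists and rule were chosen with earlier results of these data known. The alternatives were other background corrections, scalings, filters, slide and replicate blocks, moderation, array weights, probe rules and arrays left out. Tables were read in R with version 1.17.8 of the data.table package, and sequences and figures were made with Python 3.11.15, pandas 2.3.3 and matplotlib 3.10.9.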

Additional observations from a re-analysis of the deposited data

Results flagged for a closer look

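Of 86 groups of 6 mice (43 genes at 2 ages), 6 held a mouse whose gap to its nearest neighbour exceeded the share of the group's whole range that Dixon's test sets at 95%; chance flags about 1 in 20 groups.

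In 20 months replicate 1, the array highest in heart muscle markers and among the 3 lowest in smooth muscle markers, Kcnk3 was high at 4.23 (next 3.68). In 20 months replicate 3, Kcnh3 was low at -1.44 (next -1.32) and Kcnip4 low at -0.16 (next 0.23). In 20 months replicate 2, Kcnn3 was high at -1.91 (next -2.72). In 6 months replicate 3, Kcnrg was low at -3.86 (next -3.20). In 6 months replicate 1, Kcns3 was high at 1.53 (next 1.34). The part of the tissue markers in these values was not tested.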

How the results depend on the processing

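Under all 30 alternatives 0 Kcn genes and 0 partner genes passed the adjusted threshold. The number of Kcn genes at an unadjusted p under 0.05, 5 as reported, was 2 with median scaling, 2 on slide 1 alone, 7 with slide as a fixed block, 7 without the 3 arrays high in heart muscle or T and NK cell markers and between 3 and 6 with 1 array left out. The replicate numbers of the titles are not said to pair mice. Correlations between same-numbered arrays ran from -0.360 to 0.323, with 1 of 6 arrays closest to its own number. Such correlations cannot settle whether mice were paired or handled together. With the replicate number as a block the count of Kcn genes under that p was 3. The median change, -0.03, was 0.0279 on slide 3 alone and 0.0397 without the 3 arrays high in heart muscle or T and NK cell markers. The number of genes above background, 46, was 71 by the scanner's more lenient call of a positive and significant signal, 35 on all 12 arrays, and 44 to 46 with 1 array left out. Median scaling moved the split of the 46 changes from 28 negative and 18 positive to 23 and 23. Over all genes the number past the threshold, 53, was 122 with array weights, 23 without a filter and 6 with the replicate block. Leaving out a single array gave 20 to 30 for 8 arrays (replicates 3 to 5 of the adult and 2 to 6 of the old mice) and 38 to 59 for the other 4, and on slides 1, 2 and 3 alone it was 1, 1 and 0. Of 883 values of named genes under the alternatives, 1 reversed among genes with an unadjusted p under 0.05: Kcnip3 on slide 3 alone (-0.00814). A further 83 changed sign in genes with a larger p, and the cause was not tested. Dim genes such as Kcna2, Kcnk9 and Kcnj13 rest on signals near background.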
